A study of Mus musculus with 6 samples.

Results

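Complement genes were examined in IL-4-treated bone marrow-derived macrophages (BMDMs) with and without a myeloid deletion of *Acly*. The 9 genes were chosen by name, with earlier results of these data known, out of 24445 genes with a row in the count table. They encode the C1q chains (*C1qa*, *C1qb* and *C1qc*), the central component C3 (*C3*), the alternative pathway proteins factor B (*Cfb*) and properdin (*Cfp*), the anaphylatoxin receptors (*C3ar1* and *C5ar1*) and the surface inhibitor CD55 (*Cd55*). All 9 passed the filter on low counts. The AclyM-KO cells came from female mice with loxP sites around an exon of *Acly* and Cre under control of *Lyz2*, which is active in macrophages and granulocytes, and the Ctrl cells came from female Acly fl/fl littermates. Both groups therefore carried the floxed allele. Bone marrow cells were cultured in L929-conditioned medium for 7 days, and both groups were then exposed to IL-4 at 100 U/mL for 24 h. There were 3 libraries per group. The age of the mice is not given in the sources used here. The study describes the replicates as biological in one place and as technical replicates of pooled mice in another, so p-values measure the spread between libraries and may not measure that between mice.

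Complement is a cascade of plasma proteins that marks particles for uptake and releases chemotactic peptides. The classical pathway starts when C1q, built from equal numbers of A, B and C chains, binds antibodies, apoptotic cells or other surfaces. The alternative pathway is carried by C3, factor B and properdin. Most circulating complement proteins come from the liver, but C1q is made mainly by macrophages and related cells, and properdin mainly by myeloid cells. The fragments C3a and C5a act on receptors of the same cells.

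The C1q genes lie side by side within 18.7 kb on mouse chromosome 4 (build GRCm38), all on the minus strand. In GENCODE M21, *C1qb* spans 136880129 to 136886187, *C1qc* 136889804 to 136893065 and *C1qa* 136895917 to 136898803, each with 3 exons. The gaps between the genes are 3616 and 2851 bases long. *C3* (chromosome 17, 57203970 to 57228136) has 41 exons in the transcript used here, and *C3ar1* (chromosome 6, 122847138 to 122856161) has 2. The other genes, also on the minus strand, are *Cfb* (chromosome 17, 34856374 to 34862518), *Cfp* (chromosome X, 20925454 to 20931555), *C5ar1* (chromosome 7, 16246743 to 16259540) and *Cd55* (chromosome 1, 130439027 to 130462744). Upstream sequences are shown for the genes with the clearest differences between genotypes. RefSeq promoter entries (GRCm38.p6) were matched for 7 of the 9 genes, with none for *C1qa* and *Cfb*. The sequences run 5′ to 3′ up to the RefSeq start, all on the minus strand, with bases inside the GENCODE gene left off (151 for *C1qc* and 4 for *C3ar1*). Capitals mark the Maf-type motif TGCTGA and the ETS-type motif AGGAAG, each searched on both strands. In the sequences shown, no match of one motif shares bases with a match of the other.
C1qb (chr4:136886201-136886450): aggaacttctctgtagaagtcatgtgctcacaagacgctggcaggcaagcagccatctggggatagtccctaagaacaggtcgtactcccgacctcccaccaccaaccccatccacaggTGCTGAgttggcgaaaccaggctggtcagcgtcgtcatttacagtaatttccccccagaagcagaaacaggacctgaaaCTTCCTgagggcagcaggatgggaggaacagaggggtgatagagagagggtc
C1qc (chr4:136893066-136893164): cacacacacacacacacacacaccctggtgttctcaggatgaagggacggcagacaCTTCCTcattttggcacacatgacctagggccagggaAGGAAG
C3 (chr17:57228137-57228386): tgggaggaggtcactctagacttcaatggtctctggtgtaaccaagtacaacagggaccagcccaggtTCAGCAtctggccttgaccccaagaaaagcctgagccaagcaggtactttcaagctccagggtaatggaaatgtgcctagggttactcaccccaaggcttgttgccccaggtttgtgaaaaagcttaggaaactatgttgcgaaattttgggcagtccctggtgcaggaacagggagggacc
C3ar1 (chr6:122856162-122856407): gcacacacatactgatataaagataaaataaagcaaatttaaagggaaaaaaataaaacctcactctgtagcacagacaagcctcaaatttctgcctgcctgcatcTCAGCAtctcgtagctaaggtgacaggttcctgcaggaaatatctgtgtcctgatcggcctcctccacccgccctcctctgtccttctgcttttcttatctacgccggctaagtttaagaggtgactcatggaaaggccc
In the 250 bases before the RefSeq start, the Maf-type motif occurred in 5 of the 7 genes (*C1qb*, *C3*, *C3ar1*, *C5ar1* and *Cd55*) and in 16.1% of all 32851 windows of that length. The ETS-type motif occurred in 3 of the 7 (*C1qb*, *C1qc* and *C5ar1*) and in 29.5% of all windows. For *C5ar1*, 202 of the 250 bases lie inside the GENCODE gene. All its matches of both motifs lie in that part, and 0 lie upstream of the GENCODE gene. The STAT6-type palindrome TTCNNNNGAA and the sterol regulatory element TCACNCCAC were in none of these 7 windows, against 5.85% and 1.05% of all windows. These are matches of letters only. Of the genes described below with lower expression in AclyM-KO, *C1qb* and *C3* held the Maf-type motif and *C1qc* and *Cfp* did not, and *C3ar1*, with higher expression, held it.

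Libraries held 12151975 to 14739689 counts in Ctrl and 14745614 to 15587283 in AclyM-KO. *Acly* had 332, 321 and 349.6 CPM (counts scaled to the library total) in Ctrl and 146, 134 and 136 CPM in AclyM-KO, so the libraries followed their labels. Of 8 macrophage markers, which were all tested, *Adgre1* rose (log2 fold change 0.33) and *Csf1r* (-0.20), *Itgam* (-0.28) and *Mertk* (-0.73) fell, and the highest of their edgeR adjusted p-values was 0.00366. The summed level of the list was 7715 to 8028 CPM in Ctrl and 7413 to 7785 CPM in AclyM-KO. Neutrophil markers were low but separated the groups, with a sum over 10 genes of 17.1 to 19.3 CPM in Ctrl and 24.9 to 26.7 CPM in AclyM-KO. Of the 4 that were tested, *S100a8* (0.85) and *S100a9* (0.59) rose. *Ngp* (0.37, edgeR adjusted p = 0.108) and *Ltf* (0.35, edgeR adjusted p = 0.206) did not pass the test. *Ly6g* was below the filter on low counts, at 0.0225 CPM in Ctrl and 0 in AclyM-KO. The part of these cells in the results on *Cfp* and *C5ar1*, which neutrophils also express, was not tested. The sum over 6 mast cell and basophil markers was 2.97 to 4.63 CPM in Ctrl and 7.47 to 8.60 CPM in AclyM-KO, of which *Kit* made up 2.36 to 4.02 CPM and 6.92 to 8.12 CPM. The sum over 8 fibroblast markers was 0.607 to 1.15 CPM in Ctrl and 1.16 to 1.78 CPM in AclyM-KO. The groups overlapped in the sums of 8 dendritic cell markers (3.31 to 4.50 and 4.32 to 5.28 CPM), 5 monocyte markers (10.1 to 13.7 and 11.5 to 14.9 CPM), 6 lymphocyte markers (0.152 to 0.676 and 0.274 to 0.708 CPM) and 4 erythroid markers (0.338 to 0.736 and 0.322 to 1.02 CPM). Within these lists *Kit* (1.26) and *Cd209a* (1.65) rose and *F13a1* (-0.89) fell on the log2 scale. The rise of *Cd209a* rests on few reads, 3 to 6 per Ctrl library against 12 to 16 per AclyM-KO library. At so low a Ctrl level the filter on low counts admits a gene only when AclyM-KO is higher, so a fall could not have been tested. Of the 8 dendritic cell markers, 2 were tested. No count was found for *Lum*, *Mcpt8*, *Mcpt4*, *Fcer1a*, *Ms4a2*, *Ncr1*, *Hba-a1* and *Hbb-bs*. In bulk RNA, fewer cells of a type and less RNA per cell cannot be told apart.

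Expression of 5 complement genes fell in AclyM-KO macrophages and that of 1 rose, while 3 did not pass the test. The genes that fell were *C1qa*, *C1qc*, *C3*, *C1qb* and *Cfp*, in order of size, and *C3ar1* rose. A gene passed with an edgeR adjusted p-value under 0.05 over the 12023 genes tested. Of all genes tested, 12.6% passed as lower and 12.4% as higher, 24.9% in either direction. The median log2 fold change was -0.22 over the 9 genes and 0.00 over all genes tested, where a negative value means lower expression in AclyM-KO. With the additional limit of 0.58 on the log2 fold change that the study used, 1 gene was left as lower (*C1qa*) and 0 as higher, against 2.57% and 2.98% of all genes tested, 5.55% in either direction. The groups did not overlap for 6 of the 9 genes, 5 with lower and 1 with higher CPM in AclyM-KO, against 19.8% and 20.5% of all genes tested, 40.2% in either direction. Without Ctrl replicate 3, AclyM-KO replicate 1 or AclyM-KO replicate 2, 4 genes passed as lower, because *Cfp* did not.

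**Figure D1:**
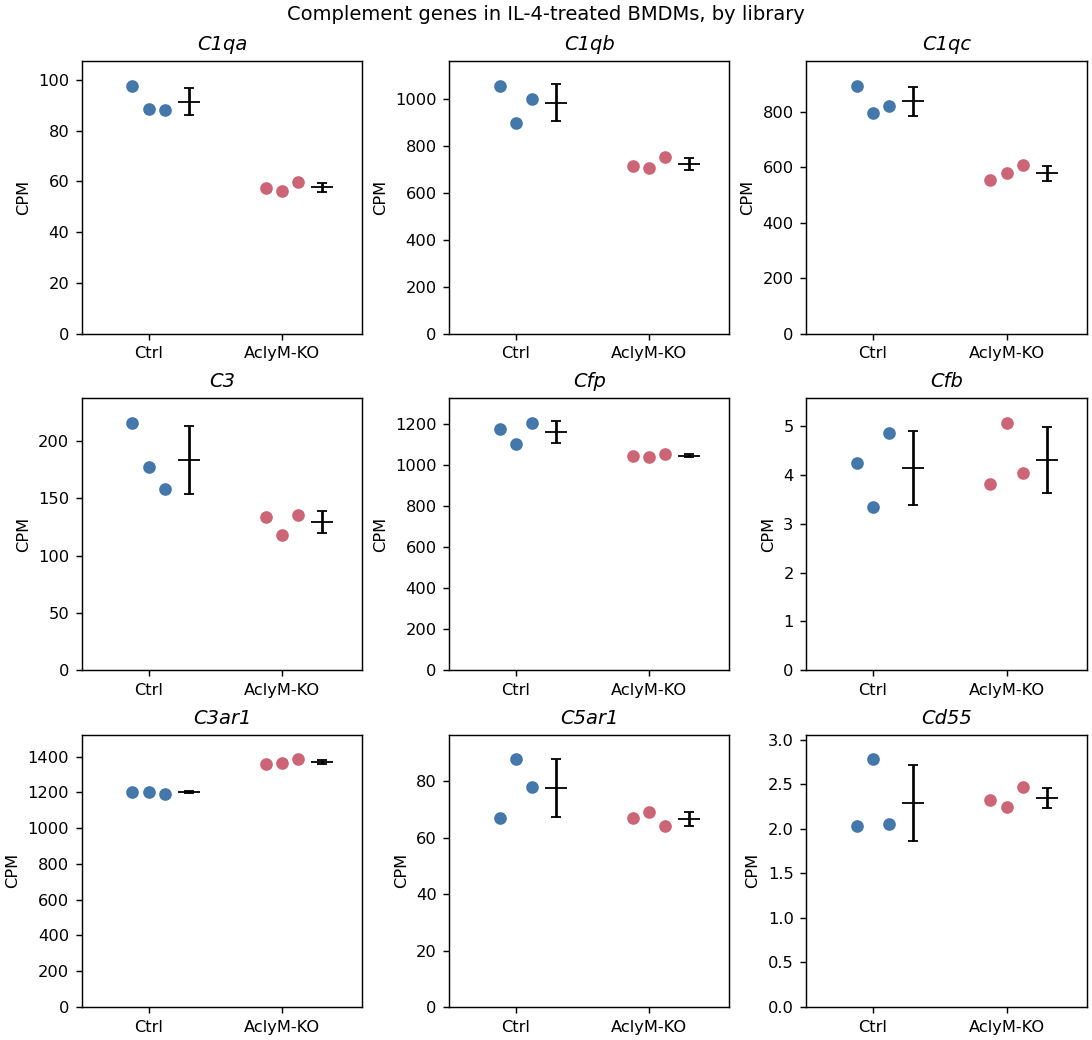
CPM (y axis from 0) of the 9 complement genes in each of the 3 Ctrl and 3 AclyM-KO libraries (points), with the mean and SD beside them. The C1q genes, *C3* and *Cfp* were lower in every AclyM-KO library than in any Ctrl library, *C3ar1* was higher, and the groups of *Cfb*, *C5ar1* and *Cd55* overlapped.

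The C1q chains fell together. *C1qa*, which encodes the A chain, was at 97.7, 88.7 and 88.0 CPM in the Ctrl libraries and at 57.4, 56.2 and 59.6 CPM in the AclyM-KO libraries. Its mean was 91.5 ± 5.38 CPM in Ctrl and 57.7 ± 1.72 CPM in AclyM-KO (SD, n = 3 each), 63.1% of the Ctrl mean. On the log2 scale the difference was -0.67 with a standard error (SE) of 0.0564 (edgeR adjusted p = 6.99e-07), which ranked 71 of all genes tested by p-value. *C1qc*, for the C chain, was at 893, 795 and 822 CPM in Ctrl and at 552, 578 and 606 CPM in AclyM-KO, a difference of -0.53 ± 0.0504 (log2, SE, edgeR adjusted p = 2.04e-06). *C1qb*, for the B chain, was at 1054, 897 and 998 CPM in Ctrl and at 712, 704 and 751 CPM in AclyM-KO, a difference of -0.44 ± 0.0532 (log2, SE, edgeR adjusted p = 2.27e-05). For each of these genes the highest AclyM-KO library lay well below the lowest Ctrl library. For each chain the two-sided p was 0.10 in an exact permutation test on CPM, which cannot be smaller with 3 libraries against 3. Ctrl replicate 1 had the highest value of all 3 chains. Leaving out 1 library at a time gave -0.70 to -0.62 for *C1qa*, -0.57 to -0.49 for *C1qc* and -0.51 to -0.39 for *C1qb*.

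Counts of 1 gene relative to another within a library do not depend on how libraries are scaled. The ratio of *C1qa* to *C1qb* counts was 0.0927, 0.0990 and 0.0882 in Ctrl and 0.0806, 0.0799 and 0.0794 in AclyM-KO. The log2 ratio of *C1qa* to *C1qb* was thus lower by 0.22 in AclyM-KO and did not overlap between groups. The ratio of *C1qc* to *C1qb* was 0.848, 0.887 and 0.824 in Ctrl and 0.776, 0.821 and 0.807 in AclyM-KO, a difference of -0.09 on the log2 scale. The ratio of *C1qa* to *C1qc* was 0.109, 0.112 and 0.107 in Ctrl and 0.104, 0.0973 and 0.0984 in AclyM-KO, a difference of -0.13. Each of these ratios was lower in every AclyM-KO library than in any Ctrl library. The two-sided p of the exact permutation test was 0.10 for each, the smallest possible, and 0.12 after adjustment over the 5 ratios tested. The order of the falls, *C1qa* before *C1qc* before *C1qb*, could not pass a threshold of 0.05 in this test.

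**Figure D2:**
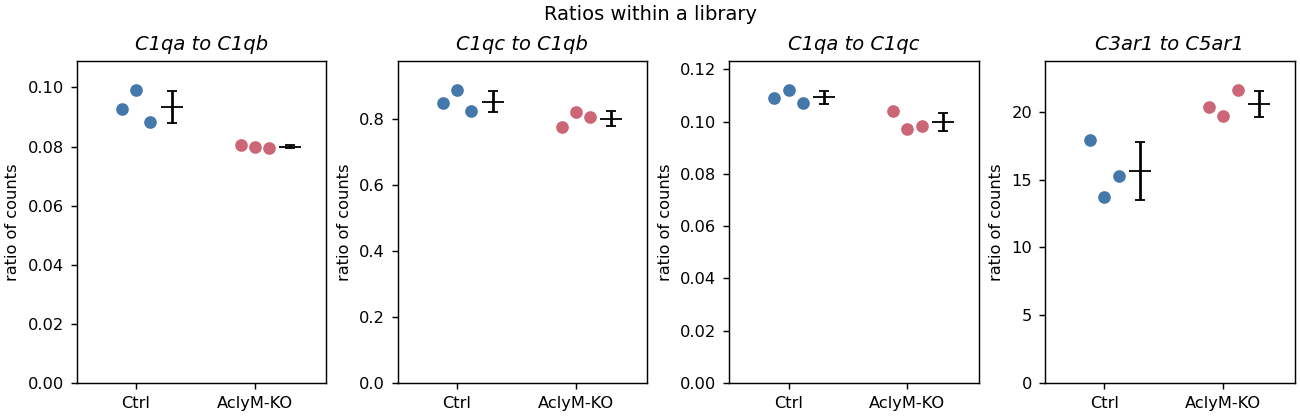
Ratio of the counts of 2 genes within a library (y axis from 0) for the C1q chains and the anaphylatoxin receptors, with 3 Ctrl and 3 AclyM-KO libraries as points and the mean and SD beside them. The C1q chain ratios were lower and the *C3ar1* to *C5ar1* ratio was higher in every AclyM-KO library.

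Genes on both sides of the C1q genes were compared with them. Within 500 kb, 11 other genes had a row in the table and 4 were tested. *Zbtb40*, which starts at 150.0 kb from the *C1qa* start, had a log2 fold change of -0.06 (edgeR adjusted p = 0.721), and *Kdm1a*, on the other side at -296.1 kb, was at 0.05 (edgeR adjusted p = 0.577). *Cdc42* (0.13, edgeR adjusted p = 0.0290) and *Luzp1* (0.68, edgeR adjusted p = 1.30e-05) rose. Of these 4 neighbours, 0 passed as lower by edgeR (also 0 at an unadjusted p under 0.05), where 12.6% of all genes tested did, so little can be read from this count. *Ephb2* and *Epha8*, the nearest genes with a row on each side, did not pass the filter on low counts.

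**Figure D3:**
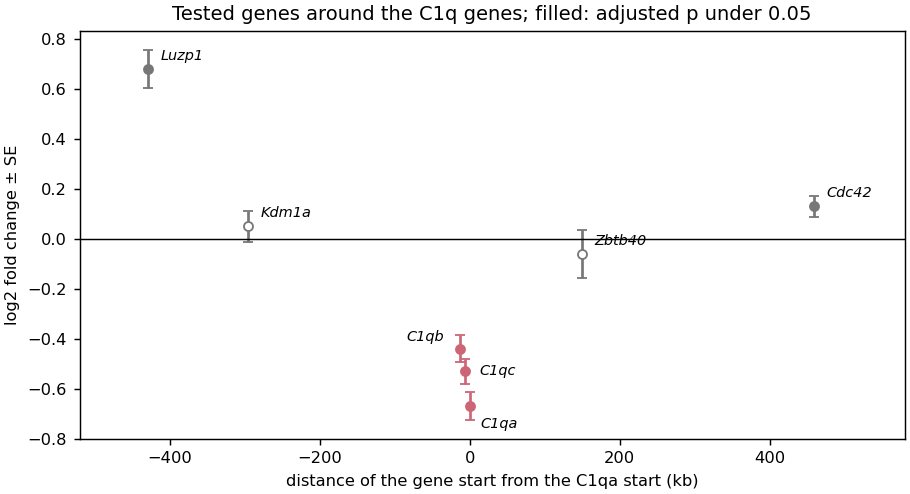
Log2 fold change with its standard error (y axis) of the tested genes within 500 kb of the C1q genes, by distance of their start from the *C1qa* start in kb (x axis). The C1q genes lie between -0.67 and -0.44, and the other 4 genes lie between -0.06 and 0.68.

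The pattern of the C1q genes over the 6 libraries was compared with that of every gene tested. Log2 CPM values were centred on the mean of the 6 libraries, and likeness was the root mean square difference from the mean of the C1q chains. The nearest genes outside C1q were *Zfp277*, *Tmem51*, *Ddhd1*, *Anxa3* and *Ly86*, with differences of 0.0334 to 0.0446. They had log2 fold changes of -0.60, -0.56, -0.55, -0.60 and -0.61. *C1qb* and *C1qa* themselves ranked 13 and 24 by this measure, and *C3*, the nearest of the other 6 genes described here, ranked 216. Each chain is part of the mean it was compared with, so its own rank is partly built in. The ranking describes these 6 libraries and was not tested.

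Of the C3 convertase genes, *C3* and *Cfp* fell and *Cfb* showed no detectable difference. *C3* encodes the protein on which all complement pathways converge. It was at 216, 177 and 158 CPM in the Ctrl libraries and at 134, 118 and 135 CPM in the AclyM-KO libraries. Its mean was 184 ± 29.4 CPM in Ctrl and 129 ± 9.29 CPM in AclyM-KO (SD, n = 3 each). The difference of -0.51 ± 0.0878 (log2, SE) had an edgeR adjusted p of 5.67e-04. Ctrl replicate 1 was the highest library, and without it the log2 fold change was -0.38 (edgeR adjusted p = 7.93e-04). The coefficient of variation of *C3* between Ctrl libraries was 16.0%, where counting alone gives 2.01%.

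*Cfp* encodes properdin, which stabilizes the alternative pathway convertase. It was at 1176, 1100.4 and 1206 CPM in Ctrl and at 1042, 1038 and 1052 CPM in AclyM-KO, 90.0% of the Ctrl mean. The groups did not overlap, and the difference was -0.15 ± 0.0409 (log2, SE, edgeR adjusted p = 0.0129). Without Ctrl replicate 3 (-0.13), AclyM-KO replicate 1 (-0.15) or AclyM-KO replicate 2 (-0.15) the edgeR adjusted p-values were 0.0588, 0.0628 and 0.0672. *Cfb*, for the protease subunit of that convertase, was low, with 63, 41 and 64 reads counted in Ctrl and 56, 79 and 59 in AclyM-KO, or 3.35 to 4.86 CPM and 3.82 to 5.08 CPM. The log2 fold change was 0.05 (95% interval -0.36 to 0.47, edgeR adjusted p = 0.875), so a change of the size seen for *C3* in the same direction lay outside the interval. Of the *Cfb* transcript, 82.0% is shared with exons of *Gm20547*, a read-through gene of the same strand in GENCODE M21, so their reads cannot be told apart. The ratio of *Cfb* to *C3* counts overlapped between groups, with a mean of 0.0231 in Ctrl and 0.0338 in AclyM-KO (two-sided exact permutation test, p = 0.30, adjusted over the 5 ratios p = 0.30).

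The anaphylatoxin receptors had log2 fold changes of opposite sign, and that of *C3ar1* alone passed the test. *C3ar1*, the receptor of C3a, was at 1204, 1202 and 1193 CPM in the Ctrl libraries and at 1361, 1364 and 1385 CPM in the AclyM-KO libraries. Libraries of a group lay close together, with a coefficient of variation of 0.469% in Ctrl and 0.952% in AclyM-KO, where counting alone gives 0.789% and 0.699%. *C3ar1* rose to 114% of the Ctrl mean, by 0.19 ± 0.0349 (log2, SE, edgeR adjusted p = 9.16e-04), and by 0.18 to 0.20 when 1 library at a time was left out. *C5ar1*, the receptor of C5a, was at 67.1, 87.8 and 77.9 CPM in Ctrl and at 66.9, 69.2 and 64.1 CPM in AclyM-KO. The Ctrl libraries were more spread than the AclyM-KO libraries and Ctrl replicate 1 lay within their range. The log2 fold change was -0.22 (95% interval before adjustment -0.38 to -0.05, edgeR adjusted p = 0.0531). Without Ctrl replicate 1 it was -0.31 and passed the test (edgeR adjusted p = 0.00255), and without Ctrl replicate 2 it was -0.12 (edgeR adjusted p = 0.160).

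Within a library there were 17.9, 13.7 and 15.3 *C3ar1* counts for each *C5ar1* count in Ctrl and 20.4, 19.7 and 21.6 in AclyM-KO. The ratio was higher in every AclyM-KO library, by 0.40 on the log2 scale (two-sided exact permutation test, p = 0.10, the smallest possible, and 0.12 adjusted over the 5 ratios). *C5ar2*, the second C5a receptor, was low, with means of 3.67 ± 0.324 CPM in Ctrl and 2.56 ± 0.517 CPM in AclyM-KO (SD, n = 3 each). Its log2 fold change was -0.52 (edgeR adjusted p = 0.0893).

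*Cd55* encodes an inhibitor of the C3 and C5 convertases on the cell's own surface. It was the lowest of the 9 genes, with 30, 34 and 27 reads counted in Ctrl and 34, 35 and 36 in AclyM-KO, or 2.03 to 2.78 CPM and 2.25 to 2.47 CPM. The groups overlapped and the log2 fold change was 0.05 (95% interval -0.46 to 0.55, edgeR adjusted p = 0.907). Differences within that interval are not excluded by these libraries. Of the *Cd55* transcript, 4.0% lies under exons of the other strand. *Cd55b*, its paralog, had 0 counts in every library.

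Levels were compared between genes as CPM per kb of transcript. *C1qb* was the highest in Ctrl (mean 903, range 824 to 969), followed by *Cfp* (709) and *C1qc* (696), which overlapped in range, and by *C3ar1* (279). These 4 genes were at or above percentile 98.4 of the 11766 tested genes with a known transcript length in Ctrl, whose median was 9.01 CPM per kb. *C1qa* was lower, at 88.0 CPM per kb or percentile 94.0, and made up 4.61% to 4.98% of the counts of the C1q genes in Ctrl and 4.20% to 4.34% in AclyM-KO. *C3* (35.8) and *C5ar1* (31.3) overlapped in range. *Cfb* (1.52) and *Cd55* (0.902) were at percentiles 15.5 and 10.4. In AclyM-KO the order was the same except that *C5ar1* (mean 26.9, range 25.8 to 27.9) lay above *C3* (mean 25.1, range 23.1 to 26.3), and these ranges overlapped. *C1qa* fell from percentile 94.0 to percentile 89.5 and *C3* from percentile 83.2 to percentile 76.2 of the same genes.

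**Figure D4:**
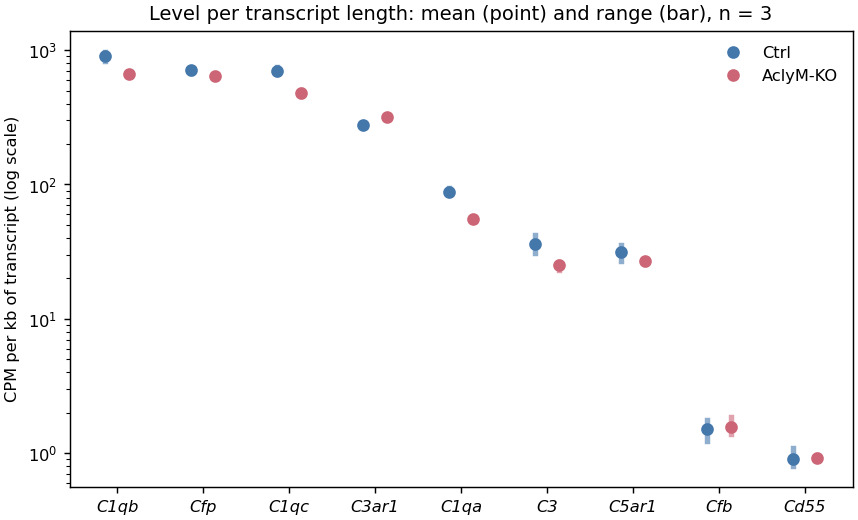
Level of each complement gene as CPM per kb of transcript (y axis, log scale), with the mean of 3 libraries as a point and their range as a bar, for Ctrl and AclyM-KO. *C1qb*, *Cfp*, *C1qc* and *C3ar1* lie at 277 or above in their lowest Ctrl library, *C1qa*, *C3* and *C5ar1* between 27 and 93.9 in Ctrl, and *Cfb* and *Cd55* at 1.78 or below.

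The rest of the complement system was represented by a list of 58 genes, of which 57 had a row and 21 were tested. The list included 3 coagulation and protease genes (*Ctsl*, *F3* and *Plg*). Of the 21 tested genes, 5 rose and 5 fell, 1 of each among the coagulation and protease genes. Of all genes tested, 12.4% rose and 12.6% fell. The median log2 fold change of the 21 genes was -0.21. In addition 22 genes had counts below the filter, among them *C4b* with 52 and *Hc*, the gene of C5, with 12 counts over all libraries. A further 14, such as *Cfd*, *C9* and *Serping1*, had no count. The number that rose was 3 without Ctrl replicate 3 and without each of the AclyM-KO libraries, and the number that fell was 3 without AclyM-KO replicate 3.

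Among genes of classical and lectin pathway initiation, *C1ra* and *Fcna* fell. *Colec12*, which was listed with them, rose. *C1ra* encodes the protease C1r that is bound to C1q, and was at 6.96, 5.07 and 5.31 CPM in Ctrl and at 4.50, 3.41 and 2.95 CPM in AclyM-KO (log2 fold change -0.68, SE 0.20, edgeR adjusted p = 0.0206). It did not pass without Ctrl replicate 1 (-0.52) or without AclyM-KO replicate 2 (-0.64) or 3 (-0.56). *C1s1* and *C1s2*, for its partner protease C1s, had 4 and 15 counts over all libraries. *Fcna*, for the lectin ficolin A, was at 6.28, 6.79 and 8.42 CPM in Ctrl and at 4.16, 5.85 and 4.80 CPM in AclyM-KO (-0.53, edgeR adjusted p = 0.0360). With DESeq2 its adjusted p-value was 0.0790, and it did not pass without Ctrl replicate 3 (-0.40) or without AclyM-KO replicate 1 (-0.42) or 3 (-0.51). *Colec12*, for a scavenger receptor with a collectin-type lectin domain, was at 22.9, 25 and 23.1 CPM in Ctrl and at 32.4, 33.4 and 33.2 CPM in AclyM-KO (0.48, SE 0.0729, edgeR adjusted p = 1.87e-04). Each of these 3 genes had groups that did not overlap. *C2* (-0.51), *C1rl* (-0.21), *Masp1* (-0.39) and *Masp2* (-0.20) did not pass the test.

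Among the regulators, 3 that did not pass the test are given here. *Cr1l*, for the rodent membrane regulator Crry, was at 68.7 ± 2.26 CPM in Ctrl and 72.6 ± 1.21 CPM in AclyM-KO (SD, n = 3 each), which differed by 0.08 on the log2 scale (edgeR adjusted p = 0.282). *Cd59a*, for an inhibitor of the membrane attack complex, was at -0.44 (edgeR adjusted p = 0.0606), and *Csmd1* was at 0.33 (edgeR adjusted p = 0.555).

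Of 7 tested genes of complement receptors and C1q-binding proteins, 2 rose and 2 fell. *Itgam* and *Itgax*, for the alpha chains of complement receptors 3 and 4, fell by 0.28 and 0.34 on the log2 scale (edgeR adjusted p = 0.00113 and 0.00137). *Itgam* was at 704, 796 and 714 CPM in Ctrl and at 635, 578 and 610 CPM in AclyM-KO. Their shared beta chain gene *Itgb2* was at 1365 ± 76.0 CPM in Ctrl and 1357 ± 25.4 CPM in AclyM-KO (SD, n = 3 each), which differed by -0.01 on the log2 scale (edgeR adjusted p = 0.905). *Calr* and *Cd93*, whose products have been described as binding C1q, were each higher by 0.11 (edgeR adjusted p = 0.0330 and 0.0495). *Cd93* did not pass without any 1 of the 6 libraries, and *Calr* did not pass without Ctrl replicate 3 or without any 1 of the AclyM-KO libraries. *C1qbp* was at 0.00 (edgeR adjusted p = 0.985). *Vsig4*, for the complement receptor of tissue macrophages, had 16 counts over all libraries and was not tested.

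The list also held *Ctsl* and *F3*. *Ctsl*, for the lysosomal protease cathepsin L, which can cleave C3 inside cells, rose by 0.35 on the log2 scale (edgeR adjusted p = 2.65e-05), from a mean of 3723 ± 243 CPM to 4745 ± 185 CPM (SD, n = 3 each). *F3*, for tissue factor, which starts coagulation, was at 7.43, 12.9 and 6.6 CPM in Ctrl and at 3.34, 3.28 and 3.08 CPM in AclyM-KO. It fell by 1.46 (log2, SE 0.233, edgeR adjusted p = 3.03e-04), and by 1.12 without Ctrl replicate 2, its highest library. *C8g*, the tested gene of the terminal components, was at -0.45 (edgeR adjusted p = 0.127).

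**Figure D5:**
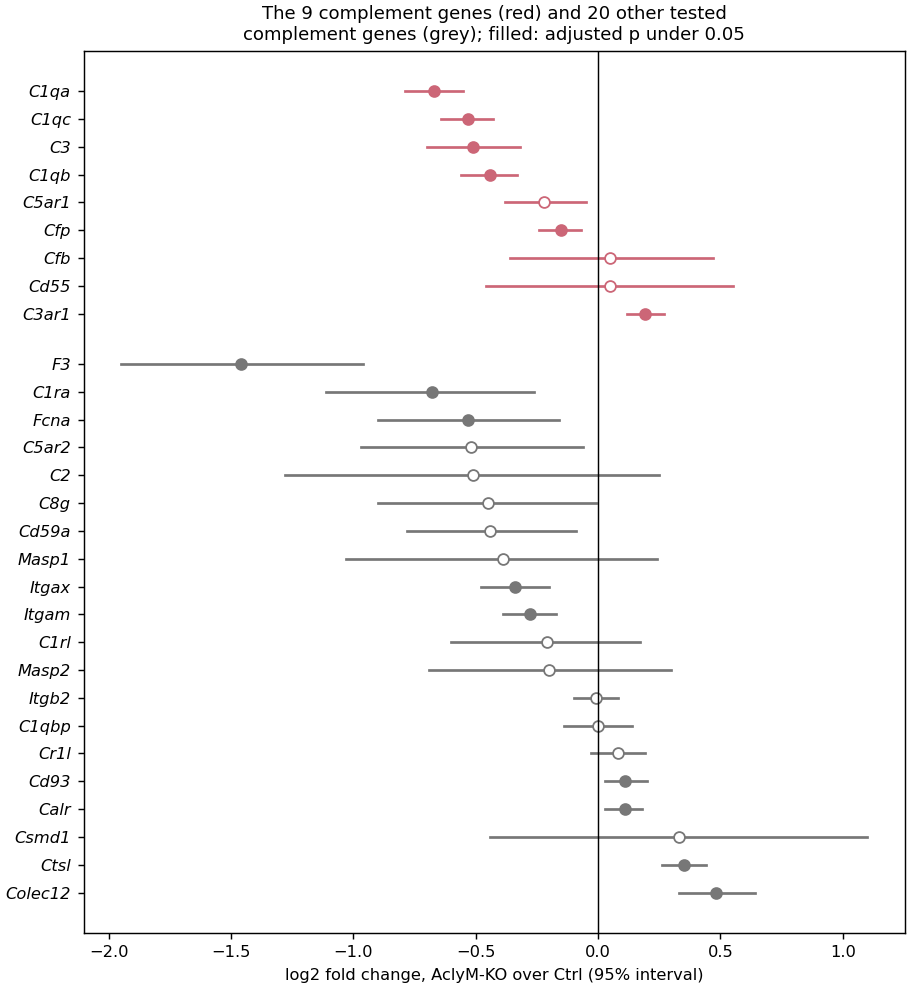
Log2 fold change of AclyM-KO over Ctrl with its 95% interval (x axis), each group ordered by value. The 9 complement genes are red, and 20 of the 21 tested genes of the list of other complement, coagulation and protease genes are grey. Filled points passed the test with an edgeR adjusted p-value under 0.05, and the C1q genes and *C3* lie between -0.67 and -0.44.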

How the data were processed

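The deposited table holds raw read counts per RefSeq transcript that the authors made from strand-specific mRNA libraries aligned to mm10 with STAR 2.5.2b. CASAVA 1.8.2 is also named in the submitters' processing notes, and the counting program is not given in the sources used here. Rows were named through RefSeq GRCm38.p6 (35440 of 35745) and GENCODE M21 (188), and 117 rows without a gene (0.370% to 1.381% of counts) were left out. Because isoforms share reads, the row with the highest total was kept per gene. The test was edgeR 4.0.16's quasi-likelihood test of genotype after filterByExpr and TMM scaling, in R 4.3.3, with Benjamini-Hochberg adjustment. CPM use TMM-scaled library totals, and levels per kb use GENCODE M21 transcript lengths. Alternatives were DESeq2 1.42.0, which the study used, limma-voom (limma 3.58.1), other scalings, filters, rows and limits, a replicate term, thinning and leaving out each library. Within a group, every pair of libraries differed beyond sampling noise (chi-square per gene 2.31 to 7.46), so none was counted as a repeat of another. Libraries made separately from pooled mice can also differ in this way, so biological and technical replicates could not be told apart. The fit was tested on simulated data. The named genes were the 9 genes, other complement genes that passed, the 5 genes nearest in pattern to C1q, marker lists and *Acly*; others, such as neighbours by position and single genes that did not pass, were named after values were seen. A few single genes that the rule names are left out here. Genes and lists were chosen with earlier results of these data known.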

Additional observations from a re-analysis of the deposited data

How the results depend on the processing

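The falls of *C1qa*, *C1qb*, *C1qc* and *C3* and the rise of *C3ar1* kept their direction and their side of the threshold in all 17 alternative fits each. With the limit of 0.58 on the log2 fold change, 0 of the 9 genes were higher and 1 lower by edgeR (0 and 1 at an unadjusted p under 0.05, and 0 and 1 by DESeq2), the other complement genes were 1 and 2, and all genes 358 and 309. With glmTreat against that limit these numbers were 0 and 0 of the 9 genes (0 and 1 at an unadjusted p under 0.05), 0 and 1, and 77 and 41. *C5ar1* passed the test with library totals as the only scaling (-0.23), without the low-count filter (-0.22), with the row of the lowest total (-0.22) and with the replicate block (-0.21). The other complement genes that rose numbered 3 with library totals only, with the sum of all rows and with the replicate block. Same-numbered libraries did not deviate together (correlations -0.0651, 0.0498 and -0.0314, and 2 of 6 libraries were nearest to their own number). With 3 libraries per group this cannot settle whether the numbers pair the libraries. Apart from *C5ar1*, the replicate block changed no call of the 9 genes. With each library left out in turn, 1 of the 9 genes was higher in every fit and 4 to 6 were lower. The same numbers were 3 to 4 and 3 to 5 for the other complement genes, and 1002 to 1512 and 972 to 1548 for all genes, with 972 without AclyM-KO replicate 2. In the same fits *C5ar1* ranged from -0.31 to -0.12, *Cfp* from -0.19 to -0.13, *Cfb* from -0.08 to 0.17 and *Cd55* from -0.04 to 0.20, where *Cfb* changed sign without Ctrl replicate 2 or AclyM-KO replicate 2 (-0.08 each) and *Cd55* without Ctrl replicate 1 (-0.04) or 3 (-0.03). Neither passed the test in any fit. The causes were not tested. Ratios of counts had the same direction on a linear scale. *Cd55* and *Cfb* had 27 to 79 counts per library, and the part of depth in their results was not tested.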
